A study of Mus musculus with 12 samples.

Results

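The subunits of RNA polymerases I, II and III and a small set of their factors comprised 35 genes, of the 21405 protein-coding genes among 55536 gene IDs in the count tables. A member is a protein-coding gene whose symbol begins with Polr1 (5 genes), Polr2 (13) or Polr3 (10), or 1 of the 7 factors Ubtf, Rrn3, Taf1a, Taf1b, Taf1c, Taf1d and Maf1. By the enzyme they serve, there were 3 subunits of polymerase I alone (Polr1a, Polr1b, Polr1e), 2 shared by polymerases I and III (Polr1c, Polr1d), 7 of polymerase II alone, 5 shared by all 3 enzymes (Polr2e, Polr2f, Polr2h, Polr2k, Polr2l) and 10 of polymerase III alone. The others were the polymerase II-associated protein Polr2m, 6 initiation factors of polymerase I and the polymerase III repressor Maf1. The pseudogene Polr2k-ps also matched the name and was left out.

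The cells were MEF, fibroblasts of mouse embryos, kept during the experiment in high-glucose DMEM with dialyzed serum. HF cells were given 100 nM halofuginone for 6 h, a drug that inhibits the enzyme that charges proline tRNA, and control cells had the drug-free medium for those 6 h. Total RNA and ribosome footprints, the mRNA fragments that a ribosome shields from nuclease, were sequenced with 3 libraries in each of the 4 groups. A single dose and a single time were used, and the dialyzed serum was common to HF and control cells. The labels name no mouse strain. Nor do they say whether replicates were separate cultures, and a p-value here weighs a change against library spread that may be technical alone.

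RNA libraries held 1017651 to 1697554 counts in HF cells and 718096 to 1295434 in control cells. Footprint libraries held 562794 to 1958356 counts in HF cells and 724609 to 2527791 in control cells. Fibroblast markers were present (10 of 10 detected). Their summed level was 9670 to 10000 CPM in HF and 8020 to 8350 CPM in control RNA, and 12600 to 13000 CPM in HF and 16200 to 17200 CPM in control footprints. In contrast, 5 of 6 epithelial markers (Cdh1, Epcam, Krt14, Cldn4 and Krt8) and all 4 muscle markers had no RNA count in any library. In footprints, 3 of the 6 epithelial and 3 of the 4 muscle markers had counts, and each list summed to at most 3.79 CPM. The summed blood and macrophage markers were at 0 to 5.89 CPM in HF and 1.61 to 4.2 CPM in control RNA. The summed endothelial markers were at 5.28 to 15.7 CPM in HF RNA and 0 to 1.61 CPM in control RNA. The summed neural markers were at 5.89 to 29 CPM in HF and 18.9 to 41.1 CPM in control RNA, and at 25.1 to 56.9 CPM in HF and 57.6 to 84.6 CPM in control footprints. Of the 4 neural markers, 1 averaged above 10 CPM in each assay. The part of these markers in the results was not tested. Gm42418, a locus that overlaps ribosomal RNA, took 7.35% to 9.48% of RNA counts in HF and 11.8% to 13.7% in control libraries, and its part in the RNA results was not tested. Levels below are CPM, a gene's share of its library's counts with the library size scaled by TMM factors, and a change is one against most other genes, since no spike-in is described. Fewer cells and less RNA per cell cannot be told apart in such bulk samples.

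As background, polymerase I transcribes the precursor of the large ribosomal RNAs, polymerase II the messenger RNAs, and polymerase III the transfer RNAs, 5S ribosomal RNA and other short RNAs. Growing cells spend much of their transcription on polymerases I and III. In mammalian cells, mTORC1 signalling is known to drive both, through Rrn3 and Ubtf at ribosomal RNA genes and through the phosphorylation of Maf1, which otherwise binds and represses polymerase III.

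Stretches of 250 bases upstream of annotated gene starts are shown for 3 members: Polr2a and Taf1a, which had among the largest changes of the subunits and of the factors, and Polr3e, a polymerase III subunit whose upstream region holds a gene transcribed by polymerase III. They come from RefSeq (GRCm38.p6) and are written 5′ to 3′ on the gene's own strand. Polr2a lies on the minus strand (upstream region chr11:69758634-69758883), with the letters TATAAA in capitals, 33 bases before the start. Taf1a lies on the plus strand (chr1:183388635-183388884). Polr3e lies on the plus strand (chr7:120917528-120917777), and the capitals mark the 71 bases of the leucine tRNA gene n-TLaag4 that fall in the region.
Polr2a: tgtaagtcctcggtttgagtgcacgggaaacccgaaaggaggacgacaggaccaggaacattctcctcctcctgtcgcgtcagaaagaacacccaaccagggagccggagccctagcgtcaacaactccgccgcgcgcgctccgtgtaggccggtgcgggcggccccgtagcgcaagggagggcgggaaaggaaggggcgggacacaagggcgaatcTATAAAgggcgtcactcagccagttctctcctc
Taf1a: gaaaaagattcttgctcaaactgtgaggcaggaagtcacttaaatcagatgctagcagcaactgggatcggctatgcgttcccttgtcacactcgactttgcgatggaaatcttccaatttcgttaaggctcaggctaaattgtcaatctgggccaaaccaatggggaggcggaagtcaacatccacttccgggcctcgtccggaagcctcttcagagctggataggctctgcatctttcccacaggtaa
Polr3e: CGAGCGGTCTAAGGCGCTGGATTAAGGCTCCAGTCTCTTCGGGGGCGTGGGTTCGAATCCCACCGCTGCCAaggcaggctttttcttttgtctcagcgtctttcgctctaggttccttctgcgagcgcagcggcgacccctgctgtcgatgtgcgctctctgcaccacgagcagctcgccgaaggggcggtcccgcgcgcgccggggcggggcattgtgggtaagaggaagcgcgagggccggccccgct

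Promoter windows of 300 bases, 250 before and 50 after a start, were held for 28 of the 35 members, in 37 windows. They were searched on both strands for the letters CACGTG (the E-box bound by Myc), TGATGNAA (the core of the element bound by ATF4 dimers), the B box of tRNA genes and TATAAA (the TATA box). CACGTG was in 5 of 37 member windows (Polr2h, Polr3c, Polr3e, Polr3gl and Rrn3) and in 7.15% of all 32851 windows. TATAAA was in those of Polr2a and Polr2c and in 13.62% of all windows, and TGATGNAA in that of Polr2m and in 3.97% of all. The B box was in the Polr3e window, within the capitals above, and in 0.05% of all windows. A match is a run of letters and not a shown site.

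Across the members, RNA levels were more often lower than higher in HF cells, while footprints were called in both directions, and footprints per RNA were called in the upward direction alone. In RNA, 31 of the 35 members had counts enough to be tested, and 4 rose (Polr3d, Polr2m, Rrn3 and Taf1a), where 22.2% of all 9145 genes tested were called higher. The 15 calls are set against 43.7% of all genes called in RNA. The 11 members that fell in RNA were Maf1, Polr2e, Polr2a, Polr2i, Ubtf, Polr1b, Polr1d, Taf1d, Polr2f, Polr3k and Polr2j, where 21.4% of all genes were called lower. Of the called members, 8 were changed at least 2-fold, against 21.5% of all genes. The median log2 fold change of the tested members was −0.33, beside −0.02 over all genes tested.

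In footprints, 32 members were tested. The 8 that rose were Taf1a, Taf1d, Polr2c, Polr3d, Polr2g, Rrn3, Polr2m and Polr3b, where 22.4% of all 8370 genes tested were called higher, and the 5 that fell were Maf1, Polr2a, Polr3c, Polr2h and Polr2e, where 20.9% were called lower. In all 43.3% of genes were called in footprints, and 22.1% were called and changed at least 2-fold, as were 5 of the members. With upper-quartile scaling these counts were 5 higher and 8 lower, and with DESeq2 they were 4 and 4. The count of 8 became 4 without footprint control 1, 4 without footprint control 2 and 5 without footprint HF 1. The median over the members was 0.00, beside −0.02 over all genes.

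Translational efficiency (TE), the footprint level relative to the RNA level, was tested for 31 members as the difference between the treatment effects in the 2 assays. TE rose for 7 members, Taf1d, Polr2f, Polr2j, Polr1d, Polr2e, Polr1c and Ubtf, where 6.12% of all 7923 genes tested were called higher and 14.5% were called in either direction. TE was changed at least 2-fold for 3 of the 7 (Taf1d, Polr2f and Polr2j), against 8.15% of all genes. No member was called lower in TE by edgeR, DESeq2 or limma voom, where 8.36% of all genes were called lower by edgeR, and 1 member (Polr2a) was lower at an unadjusted p under 0.05. DESeq2 called 5 members higher and voom 7. The count of 7 became 3 without RNA control 1, RNA control 3, RNA HF 2, RNA HF 3, footprint control 1 or footprint HF 1, and 4 without RNA control 2, footprint control 2 or footprint control 3. The median log2 TE change of the members was 0.30, beside 0.00 over all genes.

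**Figure D1:**
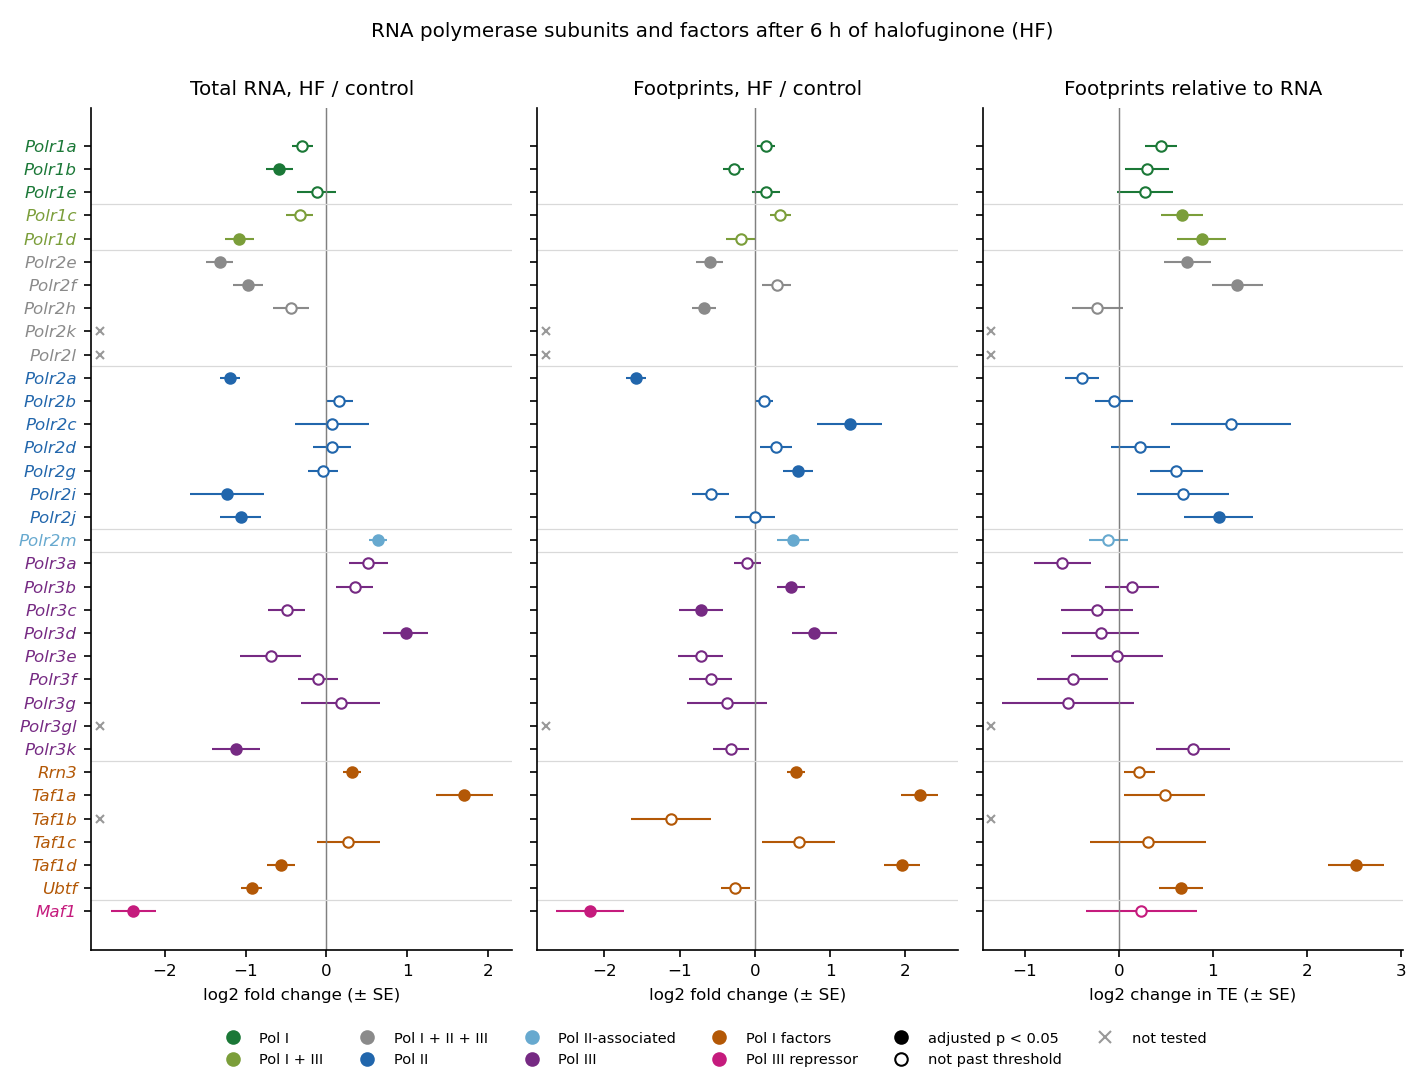
Log2 fold change (HF over control) of each member named in the text in total RNA (left) and footprints (middle) and its log2 TE change (right), with the standard error as a bar; members are coloured by the enzyme they serve, filled points passed the adjusted p of 0.05, and crosses at the left edge were not tested. Maf1 lies lowest in RNA and footprints, Taf1a highest in both, and Taf1d highest in TE.

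Maf1 had the largest fall of the members tested, in RNA and in footprints. Its RNA was at 24.6, 25.5 and 8.24 CPM in HF libraries, against 99.8, 93.0 and 97.7 CPM in control libraries. Every HF library lay far below every control library, and RNA HF 3 was the lowest. The log2 fold change was −2.39 (SE 0.28, edgeR adjusted p = 4.8e-11), a 5.26-fold lower level. Maf1 (ENSMUSG00000022553) lies on chromosome 15 from 76351294 to 76354378 in GRCm38.

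Footprints on Maf1 were at 7.88, 3.35 and 7.58 CPM in HF libraries, against 26.0, 26.4 and 43.6 CPM in control libraries, which rest on 20 counts in HF and 138 in control. The groups did not overlap, and the log2 fold change was −2.19 (SE 0.45, edgeR adjusted p = 2.1e-04). Footprints of this repressor were 4.55-fold lower, with a TE change of 0.24 (SE 0.59, edgeR adjusted p = 0.85) whose standard error is wide. Among all genes tested, the Maf1 value stood at percentile 0.612 in RNA and 1.23 in footprints.

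**Figure D2:**
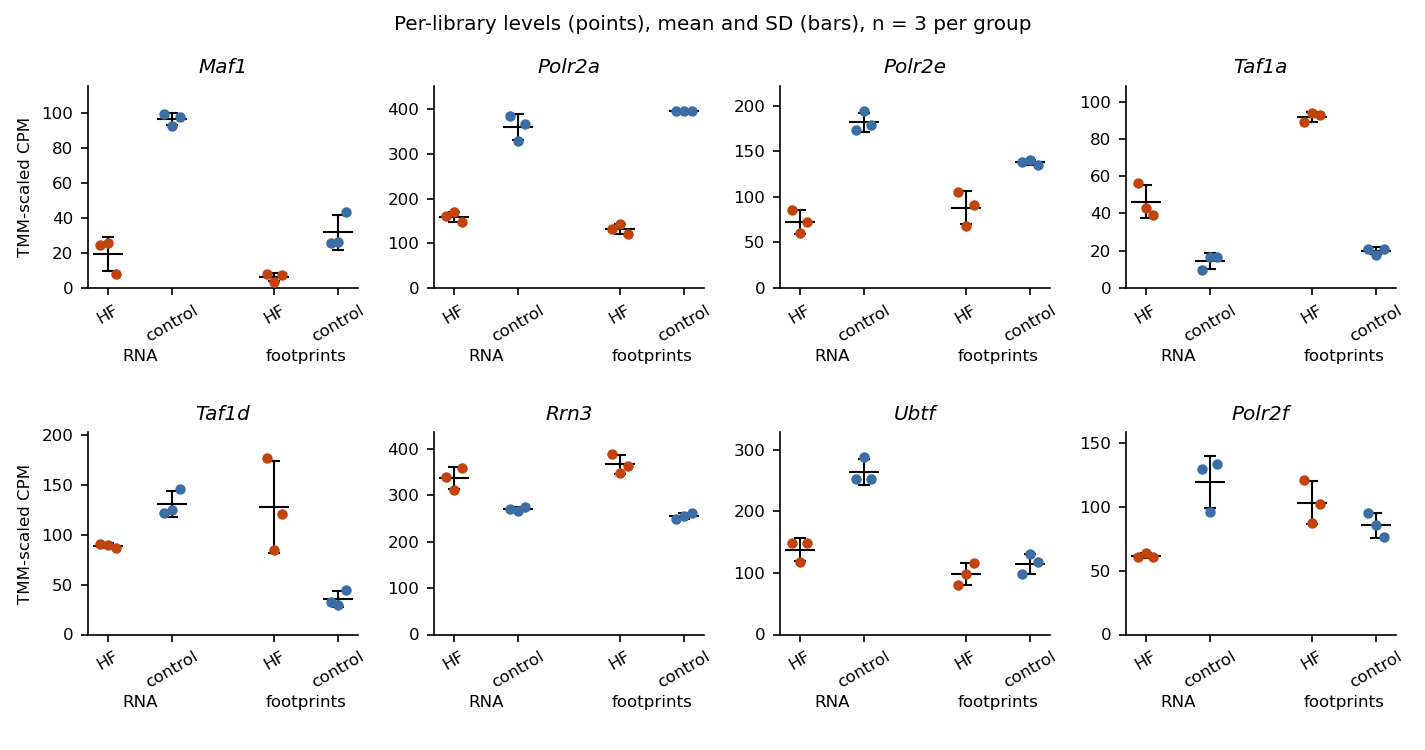
TMM-scaled CPM of 8 members in each library (points), with the mean and SD of 3 libraries (bars), for RNA and footprints, HF left of control in each pair. HF and control points are apart for Maf1, Polr2a, Polr2e, Taf1a, Taf1d and Rrn3 in both assays, whereas for Ubtf and Polr2f they are apart in RNA and overlap in footprints.

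Of the 3 subunits of polymerase I alone with a Polr1 symbol, 1 fell in RNA and none was called in footprints. Over all genes, 43.7% and 43.3% were called. Polymerase I subunits under other symbols are given further below and are in none of the counts, medians, sums and ratios of this class. With upper-quartile scaling 2 were called lower in RNA (Polr1a and Polr1b) and 1 in footprints (Polr1b). Polr1a encodes the largest, catalytic subunit and Polr1b the second largest, which forms the active centre with it, while Polr1e belongs to a subunit pair that aids initiation and elongation. Polr1b was the one that fell in RNA, at 70.4, 113 and 120 CPM in HF, against 130, 162 and 168 CPM in control libraries. The groups did not overlap, and the HF spread was set by the low value of RNA HF 1. The log2 fold change was −0.58 (SE 0.17, edgeR adjusted p = 0.0042), and without RNA HF 1 it was −0.35 (adjusted p = 0.12).

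Polr1a RNA was at 199, 174 and 164 CPM in HF, against 231, 224 and 203 CPM in control libraries. The HF libraries all lay below the controls, but the value of −0.30 (SE 0.13) did not pass (edgeR adjusted p = 0.059). It did pass without RNA control 3 (−0.36, adjusted p = 0.047). Polr1e stood at −0.12 (SE 0.24). In footprints, Polr1a was at 418, 346 and 341 CPM in HF and 341, 335 and 334 CPM in control. The HF libraries lay above the controls, by a margin lost in rounding, and it did not pass either (0.15, SE 0.12, edgeR adjusted p = 0.33). TE of Polr1a stood at 0.45 (SE 0.17) and did not pass by edgeR (adjusted p = 0.073), but did with voom (0.5, adjusted p = 0.03).

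With TMM scaling, edgeR called none of the 5 genes with a Polr1 symbol in footprints, nor did DESeq2, and 1 of them, Polr1c, was higher at an unadjusted p under 0.05. With upper-quartile scaling, edgeR called 1 of the 5 lower, Polr1b. The median log2 fold change of the 3 polymerase I subunits was −0.30 in RNA, 0.15 in footprints and 0.30 in TE. Their summed RNA level was 318, 340 and 330 CPM in HF, against 418, 440 and 419 CPM in control libraries. The summed RNA thus did not overlap between groups, while the summed footprints did, at 688, 609 and 671 CPM in HF and 654, 658 and 642 CPM in control. The footprint median was 0.00 without footprint HF 3 and 0.03 without footprint HF 1.

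The assembly subunits shared by polymerases I and III, Polr1c and Polr1d, form the platform on which both enzymes are built. Polr1d RNA was at 58.0, 79.6 and 66.5 CPM in HF, against 149, 131 and 147 CPM in control libraries. The groups lay well apart, with a log2 fold change of −1.08 (SE 0.18, edgeR adjusted p = 9.3e-07). Footprints on Polr1d overlapped between groups, at 116, 77.0 and 73.9 CPM in HF and 104, 112 and 105 CPM in control (−0.19, SE 0.19). Its TE rose by 0.88 on the log2 scale (SE 0.26, edgeR adjusted p = 0.017). That call ended without RNA HF 1 or footprint HF 1, at 0.79 and 0.59 (adjusted p = 0.054 and 0.19).

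Polr1c did not pass in RNA (−0.33, SE 0.17, edgeR adjusted p = 0.12) or in footprints (0.34, SE 0.14, adjusted p = 0.055), yet passed in TE at 0.67 (SE 0.22, edgeR adjusted p = 0.034). Its ratio of footprint to RNA level was 2.77 in HF and 1.82 in control cells. The TE call held without RNA control 2, footprint control 3, footprint HF 2 or footprint HF 3 and ended without any of the other 8 libraries, with values of 0.49 to 0.68 and adjusted p of 0.052 to 0.16. In footprints Polr1c passed without footprint HF 2, at 0.47 (adjusted p = 0.009).

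The initiation factors of polymerase I diverged from each other. Taf1a, Taf1b, Taf1c and Taf1d are the parts of the promoter selectivity factor that join the TATA-binding protein at ribosomal RNA genes, Rrn3 bridges the polymerase to that factor, and Ubtf wraps the promoter and coats active ribosomal RNA genes. Taf1a RNA was at 56.3, 43.2 and 39.4 CPM in HF, against 9.66, 16.9 and 16.8 CPM in control libraries. Each HF library was above each control library, and the log2 fold change was 1.71 (SE 0.35, edgeR adjusted p = 4.1e-05).

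Footprints on Taf1a were at 88.9, 93.7 and 92.9 CPM in HF, against 21.1, 17.8 and 21.1 CPM in control libraries. The libraries of each group lay close together and the groups far apart. The log2 fold change was 2.19 (SE 0.25, edgeR adjusted p = 9.4e-09), a 4.58-fold higher level, at percentile 98.1 of all genes. TE of Taf1a stood at 0.49 (SE 0.43) and did not pass (edgeR adjusted p = 0.51). The gene (ENSMUSG00000072258) lies on chromosome 1 from 183388885 to 183410201, and its upstream region printed above held none of the 4 letter patterns searched.

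Taf1d was the member with the largest TE change of the 31 tested. Its RNA was at 90.6, 90.4 and 86.5 CPM in HF, against 122, 125 and 146 CPM in control libraries, all HF libraries being lower (−0.56, SE 0.17, edgeR adjusted p = 0.006). Its footprints were at 177, 85.3 and 121 CPM in HF, against 32.4, 30 and 45 CPM in control libraries. All HF libraries were higher, footprint HF 1 most of all, and the log2 fold change was 1.96 (SE 0.24, edgeR adjusted p = 3.8e-08).

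TE of Taf1d rose by 2.52 (SE 0.30, edgeR adjusted p = 6.7e-09), percentile 99.9 of all genes tested, and the call held under every alternative run. The ratio of its footprint to RNA level was 1.44 in HF and 0.273 in control cells. Taf1d (ENSMUSG00000031939, chromosome 9 from 15305953 to 15316997) overlaps 10 other annotated genes, among them 6 small nucleolar RNA genes and the ends of the protein-coding Cep295 and 4931406C07Rik. Cep295 had 120 RNA counts in HF and 47 in control libraries, and 152 and 136 footprint counts. How reads in these overlaps were counted, and on which strand, is not given in the sources used here, and their part in the Taf1d values was not tested.

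Rrn3 was at 339, 311 and 358 CPM in RNA of HF cells, against 271, 265 and 274 CPM in control libraries, with no overlap. The rise was small (0.32, SE 0.11, edgeR adjusted p = 0.018) and its call ended without RNA HF 3 (0.29, adjusted p = 0.082) and with upper-quartile scaling. Footprints on Rrn3 also rose, at 388, 348 and 362 CPM in HF and 249, 254 and 261 CPM in control libraries (0.54, SE 0.12, edgeR adjusted p = 4.3e-04). The footprint groups lay apart and that call held under every alternative.

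Ubtf RNA was at 148, 117 and 148 CPM in HF, against 252, 288 and 252 CPM in control libraries. The groups lay well apart, and the log2 fold change was −0.92 (SE 0.13, edgeR adjusted p = 3.7e-08). Footprints on Ubtf overlapped between groups (98.5 ± 17.3 CPM in HF and 115 ± 16.1 CPM in control cells, SD, n = 3 each) and did not pass (−0.26, SE 0.19, edgeR adjusted p = 0.27). TE of Ubtf passed at 0.66 (SE 0.23, edgeR adjusted p = 0.044). That call held without RNA HF 1, footprint control 2 or footprint HF 1 and ended without any of the other 9 libraries (0.54 to 0.73, adjusted p 0.05 to 0.15). Upper-quartile scaling, no filter, DESeq2 and voom ended it as well.

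The 2 remaining parts of the selectivity factor did not pass. Taf1c stood at 0.27 (SE 0.39) in RNA and 0.58 (SE 0.48) in footprints. Taf1b had 20 RNA counts in HF and 7 in control libraries, too few to test. Its footprints were at 6.75, 10.0 and 3.79 CPM in HF, against 16.2, 16.6 and 11.2 CPM in control libraries. These did not overlap, on 20 and 75 counts, but the value of −1.12 (SE 0.53) did not pass (edgeR adjusted p = 0.087).

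The subunits shared by all 3 enzymes had the lowest RNA median of the subunit classes, −0.97 over the 3 that could be tested. Polr2e, at the jaw of each enzyme that grips the DNA ahead of it, was at 85.3, 59.9 and 72.4 CPM in RNA of HF cells, against 174, 195 and 179 CPM in control libraries. The groups lay far apart, and the log2 fold change was −1.32 (SE 0.17, edgeR adjusted p = 6.7e-10). Footprints on Polr2e were at 105, 68.6 and 91.0 CPM in HF, against 138, 141 and 135 CPM in control libraries (−0.60, SE 0.18, edgeR adjusted p = 0.0067). TE of Polr2e passed at 0.73 (SE 0.25, edgeR adjusted p = 0.039). The TE call held without RNA HF 1 or footprint HF 2 and ended without any of the other 10 libraries (0.53 to 0.76, adjusted p 0.05 to 0.21). It also ended without a filter and with the replicate number as a block.

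Polr2f, a small subunit at the base of the clamp of each enzyme, fell in RNA and not in footprints. Its RNA was at 60.7, 63.9 and 60.6 CPM in HF, against 129, 95.8 and 133 CPM in control libraries (−0.97, SE 0.19, edgeR adjusted p = 2.7e-05). Footprints on Polr2f were at 121, 87.0 and 102 CPM in HF and 94.9, 85.2 and 75.9 CPM in control libraries, which overlap (0.29, SE 0.19, edgeR adjusted p = 0.21). TE of Polr2f rose by 1.26 (SE 0.27, edgeR adjusted p = 7.0e-04), percentile 96.7 of all genes. Besides Taf1d it was the only member whose TE call held under every alternative run.

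Polr2h, another small common subunit, was called lower in footprints and was not called in RNA. Its TE did not pass (−0.23, SE 0.27, edgeR adjusted p = 0.64). Its footprints were at 105, 134 and 98.6 CPM in HF, against 190, 166 and 180 CPM in control libraries. The groups did not overlap (−0.68, SE 0.16, edgeR adjusted p = 9.4e-04). Its RNA of 60.1 ± 15.9 CPM in HF and 81.7 ± 7.44 CPM in control cells (SD, n = 3 each) also did not overlap but did not pass (−0.44, SE 0.22, adjusted p = 0.095), and passed without RNA HF 2 (−0.62, adjusted p = 0.04). Polr2k and Polr2l, the smallest subunits, were too low to test in either assay, with 5 and 12 RNA counts over the HF libraries and 12 and 20 over the control libraries.

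**Figure D3:**
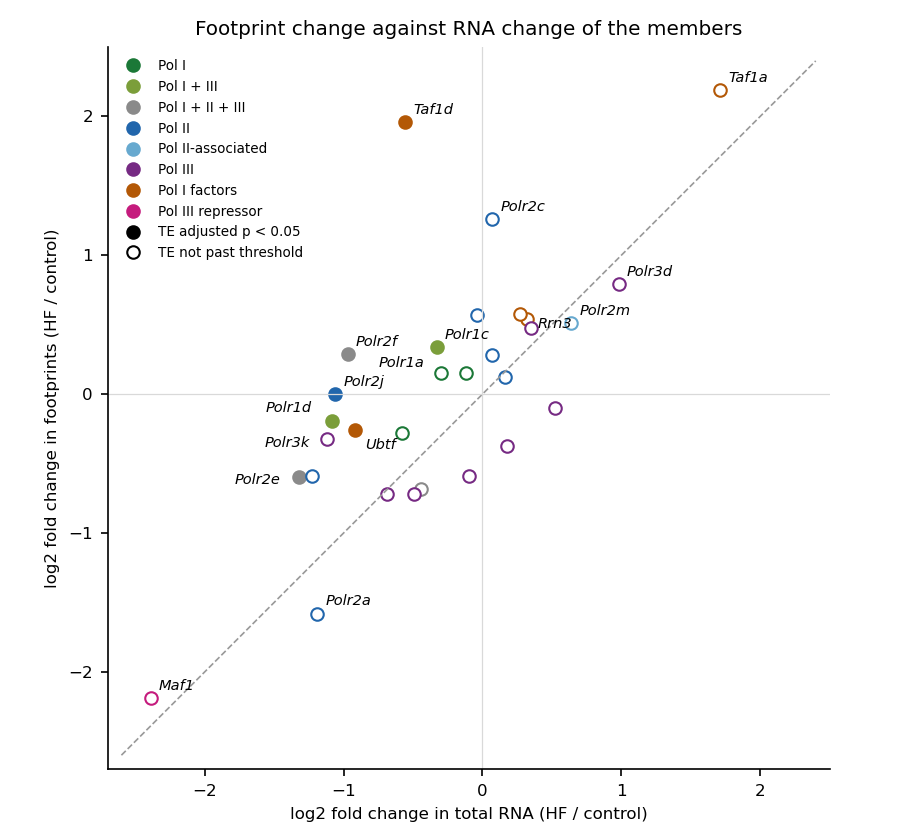
Log2 fold change in footprints (y axis) against that in total RNA (x axis), both HF over control, for members named in the text and tested in both; the dashed line marks equal change, filled points passed the TE test, and colours give the enzyme. The 7 filled points lie above the line, Taf1d farthest, while Maf1, Polr2a and Taf1a lie near it.

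Among the subunits of polymerase II alone, the footprint change was largest in Polr2a, the catalytic subunit that carries the heptad-repeat tail read by capping, splicing and termination factors. Polr2a RNA was at 162, 170 and 147 CPM in HF, against 384, 328 and 366 CPM in control libraries. All HF libraries were lower, with a log2 fold change of −1.19 (SE 0.12, edgeR adjusted p = 8.7e-13). Footprints on Polr2a were at 131, 144 and 121 CPM in HF, against 397, 396 and 395 CPM in control libraries. They fell by 1.58 on the log2 scale (SE 0.13, edgeR adjusted p = 1.1e-11), a 3.0-fold lower level. TE stood at −0.39 (SE 0.18) and did not pass (edgeR adjusted p = 0.14). Polr2a (ENSMUSG00000005198) lies on chromosome 11 from 69733997 to 69758633.

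Polr2b, the second largest subunit and the partner of Polr2a in the active centre, was not called. Its RNA was at 113, 112 and 152 CPM in HF and 101, 123 and 119 CPM in control libraries. Ribosome footprints on it were at 342, 305 and 290 CPM in HF and 284, 287 and 305 CPM in control libraries. Both overlapped between groups, with log2 fold changes of 0.16 (SE 0.17) and 0.12 (SE 0.12), and neither passed (edgeR adjusted p = 0.46 in each).

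Polr2j, which pairs with Polr2c in the assembly platform of polymerase II, fell in RNA, at 44.0, 21.6 and 38.9 CPM in HF, against 72.5, 78.9 and 70.4 CPM in control libraries (−1.06, SE 0.25, edgeR adjusted p = 3.7e-04). Its footprints overlapped between groups (0.00, SE 0.27). TE of Polr2j passed at 1.06 (SE 0.37, edgeR adjusted p = 0.045), and this call held without RNA HF 1 or footprint HF 3 and ended without any of the other 10 libraries (0.72 to 1.17, adjusted p 0.052 to 0.29). It also ended with upper-quartile scaling, DESeq2 or the replicate number as a block, and without a filter.

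Polr2i, a subunit that aids transcript cleavage and fidelity, passed in RNA at −1.23 (SE 0.46, edgeR adjusted p = 0.025), although its groups overlapped, at 10.6, 17.7 and 6.48 CPM in HF and 27.4, 14.1 and 35.7 CPM in control libraries. The call ended without RNA control 1, RNA control 3, RNA HF 1 or RNA HF 3 (−1.19 to −0.87, adjusted p 0.068 to 0.17), and with DESeq2. In footprints its groups did not overlap, but −0.59 (SE 0.25) did not pass (edgeR adjusted p = 0.056), and it passed without footprint control 3 (−0.68, adjusted p = 0.047). Polr2i overlaps the genes Tbcb and Ovol3, and Tbcb had 176 RNA counts in HF and 147 in control libraries. Other members overlap annotated genes too. Among them are Polr2b with Igfbp7, Polr2c with Dok4 and Polr3c with the small nucleolar RNA gene Gm22581. The part of these overlaps in the values was not tested.

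Polr2c and Polr2g, which forms the stalk of the enzyme with Polr2d, rose in footprints and were not called in RNA. TE passed for neither (Polr2c 1.19, SE 0.64, and Polr2g 0.61, SE 0.28, edgeR adjusted p = 0.23 and 0.15). Polr2c RNA spread widely in control libraries, at 17.7, 31 and 5.25 CPM (0.07, SE 0.46). Footprints on Polr2c were at 31.5, 26.8 and 17.1 CPM in HF, against 13.4, 6.74 and 12.6 CPM in control libraries, with no overlap (1.26, SE 0.43, edgeR adjusted p = 0.017). This call rests on 81 counts in HF and 53 in control, and ended without footprint control 2 or footprint HF 1 (0.98 and 1.02, adjusted p = 0.1 and 0.14). Footprints on Polr2g overlapped between groups, at 145, 83.7 and 94.8 CPM in HF and 69.8, 75.4 and 88.5 CPM in control libraries (0.57, SE 0.20, edgeR adjusted p = 0.023). Footprint HF 1 was the highest, and without it the value was 0.22 (adjusted p = 0.46). The call also ended without footprint control 1 (0.47) or footprint control 2 (0.53), and with DESeq2.

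Polr2m encodes a protein that binds polymerase II and makes its activity depend on Mediator. Its RNA was at 448, 394 and 370 CPM in HF, against 249, 264 and 263 CPM in control libraries. All HF libraries were higher (0.64, SE 0.11, edgeR adjusted p = 2.7e-06). Footprints on Polr2m were at 95.7, 82.0 and 77.7 CPM in HF, against 57.6, 55.2 and 74.5 CPM in control libraries (0.51, SE 0.21, edgeR adjusted p = 0.044). The footprint groups lay close, and the call ended without footprint control 1, footprint control 2, footprint HF 1 or footprint HF 2 (0.40 to 0.54, adjusted p 0.053 to 0.21). It also ended with upper-quartile scaling, DESeq2 or the replicate number as a block, and without a filter. The ratio of footprint to RNA level of Polr2m was 0.211 in HF and 0.242 in control cells.

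Of the 9 tested subunits of polymerase III alone, 1 rose (Polr3d) and 1 fell (Polr3k) in RNA, and in footprints 2 rose (Polr3d, Polr3b) and 1 fell (Polr3c), where 43.7% of all genes were called in RNA and 43.3% in footprints. With upper-quartile scaling the calls were 1 higher and 3 lower in RNA, and 0 higher and 2 lower in footprints. DESeq2 called 1 higher and 1 lower in RNA and none in footprints. In TE, edgeR, DESeq2 and voom called none of the 9, and 1 (Polr3k) was higher at an unadjusted p under 0.05. The median log2 change was −0.10 in RNA, −0.32 in footprints and −0.19 in TE. The footprint median was −0.14 without footprint control 1, −0.16 without footprint HF 1 and −0.20 without footprint HF 2 or footprint HF 3. The TE median changed sign, to 0.12, without footprint HF 1.

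Polr3d pairs with Polr3e in a module that acts in initiation and termination. Polr3d RNA was at 42.2, 58.9 and 65.9 CPM in HF, against 29.0, 32.4 and 24.2 CPM in control libraries, with no overlap (0.98, SE 0.28, edgeR adjusted p = 0.0029). Footprints on it were at 36, 46.9 and 60.7 CPM in HF, against 22.3, 27.6 and 32.3 CPM in control libraries, also with no overlap (0.79, SE 0.30, edgeR adjusted p = 0.032). The RNA call held under every alternative. The footprint call ended without footprint control 1, footprint control 2, footprint HF 2 or footprint HF 3 (0.60 to 0.81, adjusted p 0.063 to 0.16), and with upper-quartile scaling or DESeq2. Its partner Polr3e was at −0.69 (SE 0.38) in RNA and −0.72 (SE 0.30) in footprints and passed in neither (edgeR adjusted p = 0.14 and 0.052). The footprint groups of Polr3e did not overlap. In footprints Polr3e passed with upper-quartile scaling (−0.8, adjusted p = 0.031) or without footprint HF 3 (−0.91, adjusted p = 0.022). In RNA it passed without RNA control 3 (−0.98, adjusted p = 0.04).

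Polr3k, a small subunit needed for RNA cleavage and termination, fell in RNA, at 31.7, 19.6 and 25.3 CPM in HF, against 36.2, 77.5 and 57.8 CPM in control libraries. RNA control 1 came close to the HF libraries without overlap, and the log2 fold change was −1.12 (SE 0.30, edgeR adjusted p = 0.0014). Its footprints overlapped between groups (−0.32, SE 0.24, adjusted p = 0.28).

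The catalytic subunit Polr3a was not called. Its RNA was at 66.0, 74.7 and 57.1 CPM in HF and 46.7, 33.8 and 54.6 CPM in control libraries, which did not overlap (0.52, SE 0.24, edgeR adjusted p = 0.075), and it passed without RNA control 3 (0.66, adjusted p = 0.047). Its footprints overlapped (−0.10, SE 0.18). The second largest subunit Polr3b did not pass in RNA (0.35, SE 0.23) and passed in footprints, at 121, 149 and 119 CPM in HF, against 79.5, 107 and 91.3 CPM in control libraries (0.48, SE 0.18, edgeR adjusted p = 0.03). That call ended without footprint control 1, footprint control 3 or footprint HF 2 (0.35 to 0.47, adjusted p 0.064 to 0.2), and with upper-quartile scaling or DESeq2.

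Polr3c, Polr3f and Polr3g form the module that binds the initiation factors, and Polr3gl is the paralog of Polr3g. Footprints on Polr3c overlapped between groups, at 36, 53.5 and 13.3 CPM in HF and 61.7, 47.8 and 66.0 CPM in control libraries (−0.72, SE 0.29, edgeR adjusted p = 0.045). The call ended without footprint control 1, footprint control 3, footprint HF 1 or footprint HF 3 (−0.75 to −0.45, adjusted p 0.1 to 0.19), and with DESeq2. Polr3f stood at −0.59 (SE 0.28) in footprints, and passed when footprint HF 3 was left out (−0.83, adjusted p = 0.026). Polr3g, known as the form of stem and tumour cells, was at 15.8 ± 3.8 CPM in HF and 14.3 ± 4.85 CPM in control RNA (SD, n = 3 each; 0.18, SE 0.49, edgeR adjusted p = 0.79). Polr3gl, the form common in differentiated tissue, was at 5.28, 0.00 and 1.18 CPM in HF, against 8.05, 8.46 and 18.9 CPM in control RNA, on 8 and 34 counts, too few for the test. HF libraries lay below control libraries with no overlap. Without a filter, all 10 polymerase III subunits were tested in RNA, with 1 called higher and 2 lower.

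Set side by side, HF and control cells lay farthest apart in the sums that hold Polr2a and in the shared subunits. The summed RNA of the 7 polymerase II subunits was 500, 509 and 509 CPM in HF, against 754, 708 and 776 CPM in control libraries. Without Polr2a it was 338, 339 and 362 CPM in HF, against 370, 379 and 410 CPM in control libraries. The summed RNA of polymerase III was 434, 415 and 384 CPM in HF and 430, 495 and 413 CPM in control libraries, which overlap. The summed RNA of the subunits shared by all 3 enzymes averaged 199 ± 4.77 CPM in HF and 393 ± 6.19 CPM in control cells (SD, n = 3 each).

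In footprints, the polymerase II sum was 814, 735 and 696 CPM in HF, against 947, 942 and 953 CPM in control libraries, and without Polr2a it was 683, 591 and 574 CPM in HF, against 550, 546 and 558 CPM in control libraries. The groups did not overlap in either sum, and HF was lower with Polr2a and higher without it. Footprints on polymerase III subunits overlapped between groups, at 458 ± 34.3 CPM in HF and 476 ± 7.62 CPM in control cells (SD, n = 3 each). The shared subunits were at 342, 293 and 307 CPM in HF, against 432, 399 and 398 CPM in control libraries.

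**Figure D4:**
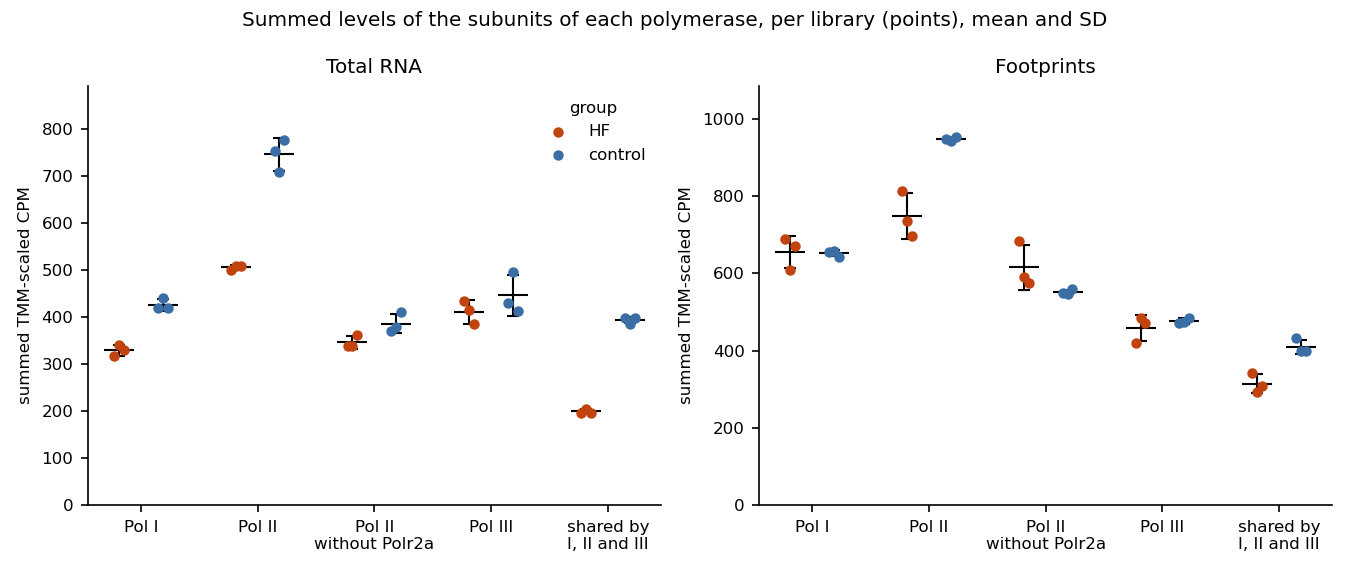
Summed TMM-scaled CPM of the subunits of each enzyme in each library (points), with the mean and SD of 3 libraries (bars), for total RNA (left) and footprints (right), HF left of control in each pair. HF lies below control for polymerase II and for the shared subunits in both panels, and the polymerase III points of HF and control overlap in both.

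Within a library, the summed RNA of polymerase III over that of polymerase II was 0.868, 0.815 and 0.754 in HF, against 0.570, 0.699 and 0.532 in control libraries. The groups did not overlap, but without Polr2a in the polymerase II sum the ratio was 1.28, 1.22 and 1.06 in HF and 1.16, 1.31 and 1.01 in control libraries, which overlap. In footprints the ratio was 0.515, 0.659 and 0.678 in HF, against 0.496, 0.503 and 0.509 in control libraries. Without Polr2a it was 0.613, 0.819 and 0.822 in HF, against 0.855, 0.868 and 0.869 in control libraries. Neither footprint ratio overlapped between groups, and HF was higher with Polr2a and lower without it. Polymerase I over polymerase II, Polr2a included, was 0.636, 0.668 and 0.648 in HF RNA, against 0.554, 0.621 and 0.54 in control RNA. In footprints it was 0.845, 0.829 and 0.964 in HF, against 0.691, 0.699 and 0.674 in control libraries. Both were higher in HF with no overlap, but this depended on Polr2a. In RNA the mean HF sum over the mean control sum was 0.773 for polymerase I. It was 0.678 for polymerase II and 0.897 for polymerase II without Polr2a. In footprints these values were 1.01, 0.79 and 1.12. By group means, polymerase I was thus lower in HF relative to polymerase II when Polr2a was left out. The ratio of polymerase I to polymerase III in RNA was 0.733, 0.819 and 0.859 in HF, against 0.972, 0.889 and 1.01 in control libraries, with no overlap, while in footprints it overlapped, at 1.64, 1.26 and 1.42 in HF and 1.39, 1.39 and 1.32 in control libraries. These ratios compare the groups and are not subunit numbers, since counts were not divided by gene length. Whether the change in 1 enzyme differed from that in another was not tested.

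The class medians rest on few genes. For the 7 polymerase II subunits the median was −0.04 in RNA, 0.12 in footprints and 0.61 in TE. Without RNA control 3 the RNA median was −0.37, and without RNA HF 3 the TE median was 0.33. All 35 members together took 2740, 2650 and 2620 CPM of RNA in HF, against 3310, 3330 and 3340 CPM in control libraries. In footprints they took 3560, 3150 and 3310 CPM in HF and 3330, 3330 and 3420 CPM in control libraries, so that the groups were apart in RNA and overlapped in footprints. HF and control libraries did not overlap for 17 of 31 tested members in RNA (5 above, 12 below) and for 16 of 32 in footprints (8 above, 8 below). Over all genes tested the groups did not overlap for 51.3% in each assay, a share close to that of the members.

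Subunits that RefSeq lists under other symbols are Twistnb, Cd3eap and Znrd1 of polymerase I and Crcp of polymerase III. They are not among the members and so not in the class values above. Of these 4, Znrd1, the subunit for transcript cleavage by polymerase I, rose in RNA (65.7 ± 4.65 CPM in HF and 40.4 ± 7.28 CPM in control; 0.67, SE 0.24, edgeR adjusted p = 0.02) and in footprints (125 ± 20.7 CPM in HF and 53.7 ± 5.98 CPM in control, SD, n = 3 each; 1.27, SE 0.19, edgeR adjusted p = 2.9e-06). The RNA call of Znrd1 ended without RNA control 2 or RNA HF 2 (0.56 and 0.64, adjusted p = 0.074 and 0.058). The other 3 were not called in either assay.

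The lists of other genes of these pathways are read against the 43.7% of all genes called in RNA, 43.3% in footprints and 14.5% in TE. Among genes of nucleolar chromatin and of polymerase I termination, 4 of 13 tested rose and 4 fell in RNA, and 3 rose and 5 fell in footprints. Cavin1, a caveola coat protein also named for the release of polymerase I transcripts, fell in RNA (438 ± 18.8 CPM in HF and 1270 ± 79.9 CPM in control) and in footprints (311 ± 23.4 CPM in HF and 881 ± 53.5 CPM in control, SD, n = 3 each). Its log2 fold changes were −1.54 and −1.50 (edgeR adjusted p = 3.8e-23 and 1.4e-13). Top2a, a DNA topoisomerase, rose by 1.05 in RNA and 0.82 in footprints. In TE 2 of 13 were called higher and 3 lower. TE of Tcof1, a nucleolar protein needed for ribosomal RNA synthesis, rose by 1.07 (SE 0.21, edgeR adjusted p = 2.8e-04). Its RNA fell by 0.95 (edgeR adjusted p = 6.5e-08) and its footprints were not called. TE of the chromatin remodeller Smarca5 fell by 1.75 (SE 0.30, edgeR adjusted p = 2.8e-05). Smarca5 rose by 0.81 in RNA and fell by 0.95 in footprints (edgeR adjusted p = 0.0069 and 6.3e-05).

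Of the general transcription factors of polymerase II, 5 of 28 tested rose and 2 fell in RNA, where 43.7% of all genes were called, and 6 of 30 rose and 3 fell in footprints, where 43.3% were called. Gtf2a1, the large subunit of TFIIA, rose in RNA (87.8 ± 10.7 CPM in HF and 32.6 ± 2.42 CPM in control; 1.42) and in footprints (56.2 ± 12.3 CPM in HF and 17.7 ± 8.04 CPM in control, SD, n = 3 each; 1.58). The TFIIH subunits went both ways, with Gtf2h4 at −2.00 and Gtf2h1 at 1.26 in RNA (edgeR adjusted p = 3.2e-08 and 2.1e-07). The median of the list was 0.11 in RNA and 0.06 in footprints. In TE, edgeR and DESeq2 called none of 28 and voom called 1, while 4 were higher and 1 lower at an unadjusted p under 0.05.

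Of the pausing and elongation factors, 6 of 24 rose and 4 fell in RNA, and 5 rose and 4 fell in footprints. Supt5, the elongation factor that rides on polymerase II and on which pausing depends, fell in RNA (68.8 ± 9.19 CPM in HF and 171 ± 20.6 CPM in control; −1.29, edgeR adjusted p = 2.6e-09) and in footprints (90.6 ± 8.62 CPM in HF and 259 ± 12.2 CPM in control, SD, n = 3 each; −1.53, adjusted p = 9.2e-10). Ccnt1, the cyclin of the kinase that releases paused polymerase II, rose by 1.03 in RNA and by 1.52 in footprints. Hexim1, the inhibitor of that kinase, fell by 1.99 in RNA, and its footprints were not called. Hexim1 TE rose by 1.63 (SE 0.39, edgeR adjusted p = 0.0024), among 1 of 24 higher and 2 lower. Of the phosphatases, kinases and readers of the polymerase II tail, 4 of 14 rose and 5 fell in RNA, and 1 of 15 rose and 2 fell in footprints. Cdk13, a kinase of the tail, was at 24.8 ± 11 CPM in HF and 91.9 ± 21.2 CPM in control footprints (SD, n = 3 each; −2.14, edgeR adjusted p = 3.8e-07).

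Of the factors for polymerase assembly and nuclear import, 5 of 15 fell in RNA, where 21.4% of all genes were called lower, and DESeq2 called 3 lower. None rose by edgeR or DESeq2, although 2 were higher at an unadjusted p under 0.05. In footprints 6 of 15 fell and 1 rose, where 20.9% of all genes were called lower and 22.4% higher. Uri1, a prefoldin-like protein of the assembly complex, fell by 1.56 in RNA and by 1.67 in footprints (edgeR adjusted p = 4.3e-05 and 0.0015), and Rpap1, a polymerase II-associated assembly factor, fell by 1.14 in footprints (adjusted p = 0.0038). Of the initiation factors of polymerase III, 2 of 19 rose and 2 fell in RNA, and 4 rose and 4 fell in footprints. Bdp1, a part of TFIIIB, rose in RNA (51.1 ± 11.4 CPM in HF and 22.5 ± 12.3 CPM in control, SD, n = 3 each; 1.25, edgeR adjusted p = 9.2e-04), and Gtf3a, the factor for 5S ribosomal RNA genes, fell (38.7 ± 7.74 CPM in HF and 81.4 ± 8.39 CPM in control; −1.09, adjusted p = 1.3e-04). Tbp, which serves all 3 enzymes, rose by 0.96 in footprints (adjusted p = 6.1e-04).

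In the list of the mitochondrial RNA polymerase, a separate single-subunit enzyme, none of 4 tested genes was called in RNA by edgeR or DESeq2 and none was under an unadjusted p of 0.05. In footprints Polrmt itself passed at −0.74 (SE 0.28, edgeR adjusted p = 0.033) and Tfb1m at 1.38 (SE 0.48, adjusted p = 0.021). The Polrmt call ended without footprint control 1, footprint control 2, footprint HF 1 or footprint HF 3 (−0.73 to −0.48, adjusted p 0.054 to 0.24), and with DESeq2. The Tfb1m call ended without footprint control 1, footprint control 2 or footprint HF 3 (1.15 to 1.35, adjusted p 0.066 to 0.1).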

How the data were processed

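For each of 12 libraries the authors deposited raw gene counts, whole numbers with no scaling. Per the submitters' processing notes, Bowtie, HISAT2 and HTSeq were used with GRCm38. Which feature HTSeq counted, whether by strand and how multi-mapping reads were treated is not given in the sources used here. Reads outside coding regions may thus be among the footprint counts, and overlapping or antisense genes cannot be told apart. Per the labels' protocols, total RNA was broken by alkaline hydrolysis, footprints came from RNase I digestion and the monosome fraction, and both were size-selected on a gel. Low counts were mostly even (79.4% of counts from 1 to 20 in RNA and 69.3% in footprints), for a reason the sources do not give. If reads were entered more than once, the independent reads behind a printed count are fewer than that count, and the tests rest on fewer reads than they assume.

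Groups came from the library titles. Counts were tested in R 4.3.3 with the quasi-likelihood test of edgeR 4.0.16 (TMM factors, filterByExpr with a minimum count of 10, Benjamini-Hochberg adjustment over all genes tested, threshold 0.05), for RNA on every gene and for footprints on the protein-coding ones. TE was the interaction of assay and treatment over 12 libraries, with TMM factors within each assay. Standard errors were the absolute log2 change over the square root of F, and fitted changes can differ from ratios of means. The test was tried on data simulated with the same spread setting for every gene and without the excess of even counts. These data differ in that, and no result here rests on the trial. Alternatives were other scalings, no filter, each library left out, the replicate number as a block, DESeq2 1.42.0 and voom of limma 3.58.1. Voom was run for TE alone, with libraries of the same treatment and replicate number taken as a random block. Medians of classes were given without a test and were not recomputed by DESeq2 or voom.

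The members and gene lists were chosen with earlier results of these data known. Named were members past the threshold in any comparison, the 2 largest subunits of each polymerase, the 7 factors and the paralogs Polr3g and Polr3gl, and of each other list up to 3 called genes of largest change. One polymerase III subunit enters the counts, sums and medians of its class but is not reported here by itself. Levels per gene length were planned and not computed, as no lengths were used here, so levels are not compared between genes. Coordinates, promoter windows and gene types are those of RefSeq for GRCm38.p6, counted from 1. Library totals were 562794 to 2527791 counts, and values resting on under about 100 counts per group have wide errors.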

Additional observations from a re-analysis of the deposited data

How the results depend on the processing

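Under every alternative run, 12 of the 15 RNA calls among the members held (not Polr2i, Rrn3 and Polr1b), as did 7 of 13 in footprints (Polr2e, Polr2a, Polr2h, Maf1, Rrn3, Taf1d and Taf1a) and 2 of 7 in TE (Taf1d and Polr2f). Of named members not called, 6 of 15 in RNA, 5 of 18 in footprints and 1 of 23 in TE were called under at least 1 alternative. Footprint calls were 5 higher and 8 lower with upper-quartile scaling, which moved the median of all genes by −0.084, and DESeq2 called 4 higher. The upper-quartile footprint median of polymerase I was 0.06. TE calls were 4 higher without a filter. With 1 library left out, higher footprint calls ran from 4 to 7, higher TE calls from 3 to 5, the polymerase II median from −0.37 to 0.05 in RNA and from 0.33 to 0.73 in TE, and the polymerase I footprint median from 0.00 to 0.19; the cause was not tested. Correlations of same-number libraries ran from −0.03 to 0.065. These cannot show whether the numbers pair cultures, since deviations within 3 libraries hold counting noise. With the replicate number as a block, calls were 4 higher and 11 lower in RNA, 7 and 5 in footprints and 5 and 0 in TE. Signs of single members turned only where the member was not called. With a library left out, the RNA values ran from −0.16 to 0.08 for Polr2g (0.00 without a filter), −0.21 to 0.01 for Polr3f, −0.02 to 0.46 for Polr3g, −0.07 to 0.19 for Polr2d and −0.37 to 0.62 for Polr2c. Footprint values ran from −0.35 to 0.15 for Polr2j, −0.22 to 0.07 for Polr3a and 0.00 to 0.27 for Polr1e. TE values ran from −0.13 to 0.14 for Polr2b, −0.22 to 0.27 for Polr3e, −0.19 to 0.49 for Maf1, −0.10 to 0.73 for Taf1c, −0.38 to 0.04 for Polr3d and −0.54 to 0.04 for Polr3c. Of the called genes of other lists picked by the rule for named genes, 12 of 19 in RNA, 16 of 21 in footprints and 5 of 10 in TE were called under every alternative.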
